A study of Mus musculus with 12 samples.

Results

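The PDZ-LIM genes Pdlim1, Pdlim2, Pdlim3, Pdlim4, Pdlim5, Pdlim7 and Ldb3 were followed by name through the expression and splicing tables of mouse hindlimb muscle after spaceflight. All 7 genes were found among the 36008 genes listed with TPM values (transcript abundances corrected for transcript length and scaled to a fixed total per library), and 4 of them (Pdlim3, Pdlim5, Pdlim7 and Ldb3) had splicing events. Those were 6 of the 2423 events listed for the gastrocnemius and the same 6 of the 2416 events listed for the quadriceps; Pdlim1, Pdlim2 and Pdlim4 had none.

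Female mice, 30 weeks old at the start, spent 9 weeks on the International Space Station (flight) or in identical hardware on the ground. All of them were control animals of an osteoporosis study and received phosphate-buffered saline injections every 2 weeks. The sample labels give the strain as C57BL/6, whereas the methods of the study give BALB/c. Polyadenylated RNA of the gastrocnemius and quadriceps was sequenced from the same 3 ground mice (M02, M03 and M08) and 3 flight mice (M11, M12 and M20), which made 4 groups of 3 libraries. The muscles came from frozen carcasses and hold several cell types, so that fewer cells of a type and less RNA per cell cannot be told apart.

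PDZ-LIM proteins join a PDZ domain, which binds actin-associated proteins such as α-actinin, to LIM domains, which bind kinases and other partners. In striated muscle many of them sit at the Z-disc, the plate that anchors the thin filaments of neighbouring sarcomeres. Pdlim1, Pdlim2, Pdlim3 and Pdlim4 belong to the ALP group, with a single LIM domain, and Pdlim5, Pdlim7 and Ldb3 to the Enigma group, whose long forms carry several LIM domains. Alternative splicing is known to give the Enigma group long forms and short forms that lack the LIM domains. Ldb3 (also called Cypher or ZASP) is a structural Z-disc protein, and its mutations cause myopathy and cardiomyopathy.

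The exons on which the splicing results turn are shown here with the last 12 bases of the exon before and the first 12 of the exon after in lower case, and the alternative exon itself in capitals. They were read from the GENCODE vM21 transcripts (build GRCm38, mm10), 5′ to 3′ on the coding strand, and each lies wholly within coding sequence.
Pdlim7 exon of 119 bases, chr13:55508208-55508326, minus strand, exon 5 of Pdlim7-201: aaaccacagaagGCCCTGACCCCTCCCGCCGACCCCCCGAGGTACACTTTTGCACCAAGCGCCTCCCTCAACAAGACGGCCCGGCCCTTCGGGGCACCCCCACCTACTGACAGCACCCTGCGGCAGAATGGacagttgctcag
Pdlim7 exon of 17 bases, chr13:55507864-55507880, minus strand, exon 5 of Pdlim7-202: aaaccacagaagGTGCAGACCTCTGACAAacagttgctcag
Ldb3 exon of 186 bases, chr14:34555343-34555528, minus strand, exon 8 of Ldb3-201: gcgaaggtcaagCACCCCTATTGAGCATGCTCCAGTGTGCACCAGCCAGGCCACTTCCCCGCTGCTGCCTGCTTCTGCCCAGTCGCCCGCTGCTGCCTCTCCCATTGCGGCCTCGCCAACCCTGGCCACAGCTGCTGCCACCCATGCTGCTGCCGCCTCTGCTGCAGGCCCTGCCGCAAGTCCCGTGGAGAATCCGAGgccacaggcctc
Ldb3 exon of 15 bases, chr14:34569713-34569727, minus strand, exon 6 of Ldb3-205: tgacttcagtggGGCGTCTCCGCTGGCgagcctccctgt
Pdlim5 exon of 18 bases, chr3:142304705-142304722, minus strand, exon 7 of Pdlim5-203: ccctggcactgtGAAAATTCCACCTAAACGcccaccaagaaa

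The sixth event skips the Pdlim3 exon of 264 bases at chr8:45913697-45913960 on the plus strand, exon 5 of Pdlim3-203. Exons of 186, 15, 18 and 264 bases are whole numbers of codons (62, 5, 6 and 88), so their inclusion adds residues without changing the reading frame. The Pdlim7 exons of 119 and 17 bases both leave a remainder of 2 bases, so exchanging them keeps the frame and changes the protein by 34 codons (102 bases). A transcript with both exons carries 136 bases there, which leaves a remainder of 1.

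By group mean Ldb3 was the most abundant of the 7 genes and Pdlim2 the least in each of the 4 groups. Ldb3 lay between 726 and 887 TPM over the 12 libraries. Pdlim3 (228 to 326 TPM), Pdlim7 (215 to 277 TPM) and Pdlim5 (139.7 to 242 TPM) came next. Pdlim5 was below Pdlim3 in 12 of 12 libraries and below Pdlim7 in all but the flight quadriceps of M12. By group, Pdlim5 was separate from Pdlim3 in all but the ground gastrocnemius and from Pdlim7 in all but the flight quadriceps. Pdlim3 and Pdlim7 overlapped in all groups but the flight quadriceps, where Pdlim3 was higher. Pdlim1 was lower, at 20.6 to 61.95 TPM. Pdlim4 (0.669 to 4.97 TPM) and Pdlim2 (0.488 to 2.92 TPM) were low everywhere, with Pdlim4 above Pdlim2 in every group but the ground quadriceps, where they overlapped. These TPM are per length of transcript, so the levels can be set side by side between genes. Neither Pdlim4 nor Pdlim2 exceeded 5 TPM in any library, the level a gene had to pass to be tested, which left 5 of the 7 members among the 10481 genes tested.

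**Figure D1:**
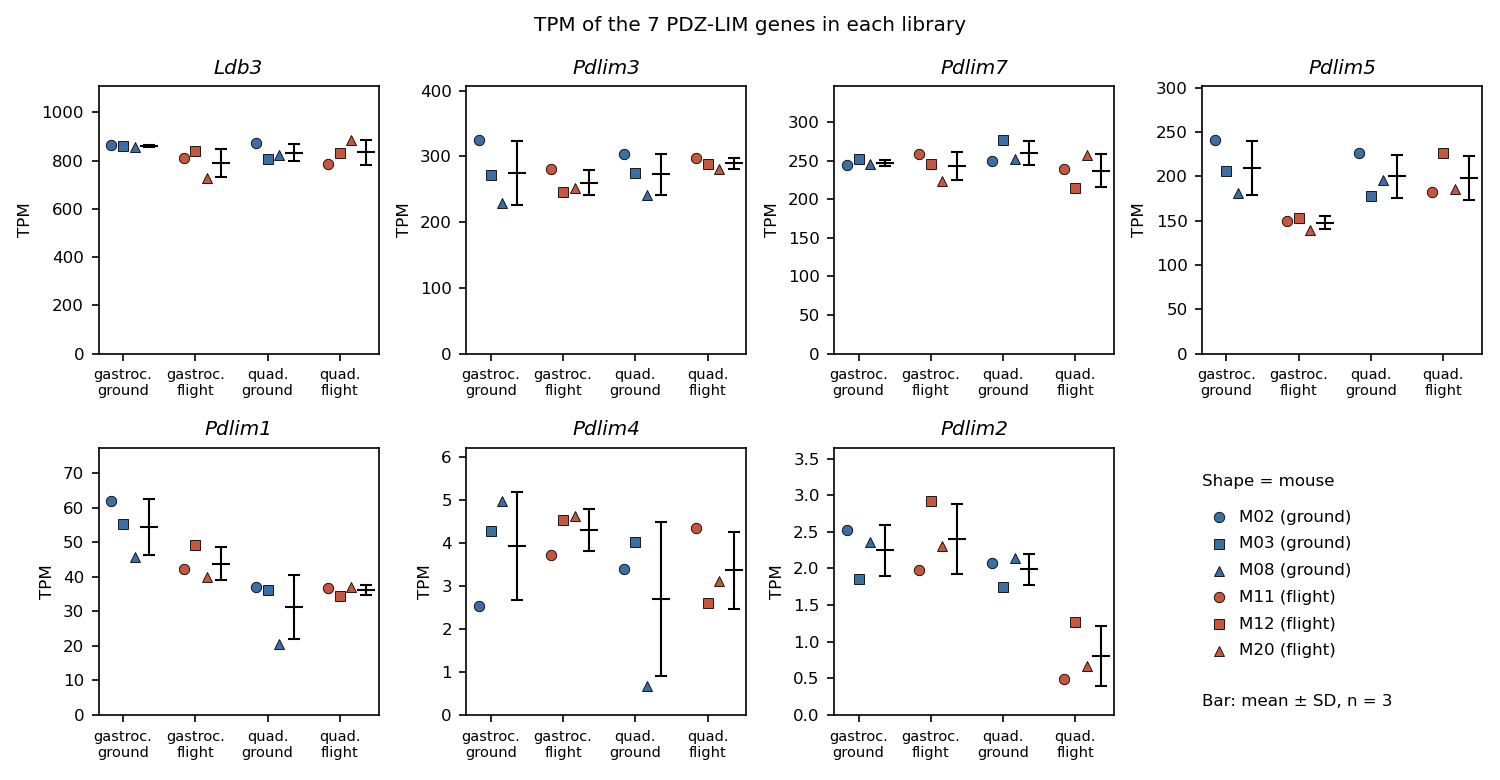
TPM (linear axis from 0) of each PDZ-LIM gene in the 12 libraries, with ground libraries in blue, flight libraries in red and 1 symbol shape per mouse within a condition. Black bars give the group mean and SD of 3 libraries. Pdlim5 in the gastrocnemius lies between 139.7 and 153 TPM in flight and between 181 and 242 TPM on the ground, and Pdlim1 in the quadriceps has 1 low ground library at 20.6 TPM.

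The first comparison was flight against ground within the gastrocnemius, the ankle extensor. A gene was called when limma gave an adjusted p under 0.05 over all genes and a difference of more than 1.5-fold on the log2(TPM + 1) scale. No PDZ-LIM gene was called, against 0.229% of all genes tested, and at an unadjusted p under 0.05 the count was 1 of 5. For scale, Pdlim1, at an unadjusted p of 0.0528 by limma in this comparison, ranked 1637 of the 10481 genes. All 5 fitted differences were below 0 (median log2 difference -0.12, against 0.02 over all genes). In 2 of the 5 genes, Pdlim5 and Ldb3, the flight and ground libraries did not overlap, which was so for 21.0% of all genes.

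Pdlim5 (ENSMUSG00000028273, chr3:142239590-142395696, minus strand) encodes the Enigma homolog ENH, which tethers protein kinase C to the Z-disc. Its level in the ground gastrocnemius was 242, 206 and 181 TPM in M02, M03 and M08, and in the flight gastrocnemius 149.6, 153 and 139.7 TPM in M11, M12 and M20. Every flight library was thus below every ground library. The group means were 209.5 ± 30.4 and 148 ± 7.10 TPM (SD, n = 3), a log2 difference of -0.49 ± 0.11 (SE; 95% interval -0.75 to -0.23), or 1.41-fold lower in flight. The adjusted p was 0.142, so the difference was not past the threshold. It ranged from -0.59 to -0.39 as each library was left out, with adjusted p between 0.1005 and 0.447.

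In the same libraries the slow fibre markers, among them the slow myosin light chains Myl2 and Myl3, were also lower in flight. All 8 of the 8 markers had lower fitted values and 3 were called lower (Myl2, Myl3 and Atp2a2, the slow calcium pump). Their summed level was 1725 to 2102 TPM on the ground and 1058 to 1274 TPM in flight, and the defining marker Myh7 was listed above 0 in all groups. In the quadriceps 6 of 8 were lower and 0 were called (0 at an unadjusted p under 0.05 by limma), with sums of 889 to 2200 TPM on the ground and 1213 to 1671 TPM in flight. Fast fibre markers, the bulk of both muscles, summed to 71583 to 73670 TPM in the ground gastrocnemius and 77432 to 80325 TPM in flight. Of these 8 markers 0 were called, and at an unadjusted p under 0.05 by limma 4 were higher and 1, Myh2, lower. The part of these markers in the Pdlim5 difference was not tested.

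Ldb3 (ENSMUSG00000021798, chr14:34526603-34588682, minus strand) measured 866, 859 and 856 TPM in the ground gastrocnemius and 809, 839 and 726 TPM in flight. The groups did not overlap, but the difference was small: -0.12 ± 0.07 on the log2 scale (95% interval -0.30 to 0.05, adjusted p = 0.468). Pdlim1 (ENSMUSG00000055044, chr19:40221173-40271842, minus strand) encodes CLP36, an α-actinin binding protein of many tissues. It measured 61.95, 55.4 and 45.8 TPM on the ground and 42.3, 49.2 and 40.0 TPM in flight, with overlapping groups and a log2 difference of -0.30 ± 0.13 (adjusted p = 0.338).

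Pdlim3 (ENSMUSG00000031636, chr8:45885461-45919548, plus strand), the actinin-associated LIM protein ALP of the Z-disc, measured 326, 271 and 228 TPM on the ground and 281, 246 and 252 TPM in flight. Its flight values fell inside the ground range. Pdlim7 (ENSMUSG00000021493, chr13:55495795-55513676, minus strand), the Enigma protein, held 245, 252 and 246 TPM on the ground and 259, 246 and 224 TPM in flight. For these genes the 95% intervals of the log2 difference, -0.37 to 0.23 for Pdlim3 and -0.21 to 0.15 for Pdlim7, held no 1.5-fold difference in either direction (adjusted p = 0.835 and 0.893).

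The second comparison was flight against ground within the quadriceps, the knee extensor. Again no PDZ-LIM gene was called (0.0286% of all genes), none had an unadjusted p under 0.05 by limma, and none of the 5 had groups that did not overlap (17.4% of all genes). Pdlim5 measured 226, 178 and 196 TPM on the ground and 183, 226 and 185 TPM in flight, which is the same range. Its log2 difference was -0.01 ± 0.12 (95% interval -0.30 to 0.27, adjusted p = 0.970). Ldb3 went from 871, 805 and 822 TPM to 785, 832 and 887 TPM, and Pdlim3 from 303, 275 and 241 TPM to 298, 289 and 281 TPM.

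Pdlim7 was 249.5, 277 and 253 TPM in the ground quadriceps and 239.6, 215 and 257 TPM in flight (log2 difference -0.13 ± 0.09, adjusted p = 0.598). Pdlim1 was 37.2, 36.2 and 20.6 TPM on the ground and 36.7, 34.5 and 37.1 TPM in flight. The low ground value belonged to M08, whose quadriceps library also listed the fewest genes above 0 (18172, against 20291 to 21265 in the other libraries). With that library the log2 difference of Pdlim1 was 0.25 ± 0.22, and without it -0.02.

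The 2 low members were compared by an exact two-sided permutation test, which cannot go below p = 0.1 with 3 against 3 libraries. Pdlim2 (ENSMUSG00000022090, chr14:70164218-70177681, minus strand), a PDZ-LIM protein known for promoting the degradation of transcription factors in immune cells, measured 2.07, 1.75 and 2.14 TPM in the ground quadriceps and 0.488, 1.27 and 0.663 TPM in flight. The groups did not overlap and the exact p was 0.1, the smallest that this design allows. In the same libraries the summed level of 6 adipocyte markers was 324 to 600.2 TPM on the ground and 205 to 285 TPM in flight (0 called, 6 with an unadjusted p under 0.05 by limma), and that of 6 leukocyte markers was 8.62 to 12.6 TPM on the ground and 13.4 to 15.6 TPM in flight. The part of these cells in the Pdlim2 values was not tested. Its gastrocnemius levels were 2.52, 1.85 and 2.36 TPM on the ground and 1.97, 2.92 and 2.30 TPM in flight (exact permutation p = 0.7). Pdlim4 (ENSMUSG00000020388, chr11:54054928-54069014, minus strand), also called RIL, a regulator of actin stress fibres, overlapped between conditions in both muscles (exact permutation p = 0.8 in the gastrocnemius and 0.7 in the quadriceps). Its lowest value, 0.669 TPM, was again in the quadriceps of M08.

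Because the same mice gave both muscles, the muscles were also compared within mice, with the mouse as a block. On the ground Pdlim1 was the 1 PDZ-LIM gene called, against 3.2% of all genes called and 11.9% with an adjusted p under 0.05. In M02 it was 61.95 TPM in the gastrocnemius and 37.2 TPM in the quadriceps, in M03 55.4 and 36.2 TPM, and in M08 45.8 and 20.6 TPM. The gastrocnemius was higher in 3 of 3 mice and the groups did not overlap, as was so for 33.8% of all genes. The log2 difference was 0.81 ± 0.12 (95% interval 0.54 to 1.09, adjusted p = 0.0104), or 1.76-fold.

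That call rested on all 3 ground mice. Leaving out M02, M03 or M08 gave log2 differences of 0.86, 0.92 and 0.66 with adjusted p of 0.0555, 0.0553 and 0.0567, and without the filter on low TPM the adjusted p was 0.0562. The median of all genes differed by -0.12 between the muscles, so the difference of Pdlim1 relative to it was larger, 0.93 after median-ratio scaling. Schwann cell markers, from the myelin of nerve, were higher in the gastrocnemius (4 of 5 called; summed level 115 to 173 TPM against 42.5 to 69.55 TPM in the quadriceps). Adipocyte markers were lower (4 of 6 called; 182 to 262 TPM against 324 to 600.2 TPM), and endothelium markers overlapped (109 to 118 TPM against 102 to 116 TPM). Smooth muscle markers were higher in the gastrocnemius in sum (167 to 186 TPM against 124 to 142 TPM); 0 of the 4 tested were called, and 4 had an unadjusted p under 0.05 by limma. Fast fibre markers were lower in sum (71583 to 73670 TPM against 99881 to 108368 TPM), with 1 of 8 called lower. At an unadjusted p under 0.05 by limma 6 were lower and 2 higher. Slow fibre markers had higher fitted values in 8 of 8, with overlapping sums (1725 to 2102 TPM against 889 to 2200 TPM). Of them 0 were called and 1 had an unadjusted p under 0.05 by limma. Of the fibroblast markers 1, Mfap5, was called higher, and 5 of 7 had lower values. For scale, Prkca, at an unadjusted p of 0.0454 by limma in this comparison, ranked 3078 of the 10481 genes. The part of these cells and fibres in the Pdlim1 difference was not tested.

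In flight another member, Pdlim5, had an adjusted p under 0.05 between the muscles but was not called. It measured 149.6 TPM in the gastrocnemius and 183 TPM in the quadriceps of M11, 153 and 226 TPM in M12, and 139.7 and 185 TPM in M20. The gastrocnemius was lower in 3 of 3 mice, and the groups did not overlap (30.4% of all genes). The log2 difference was -0.42 ± 0.09 (95% interval -0.62 to -0.22, adjusted p = 0.0211), or 1.33-fold. Of all genes 13.4% had an adjusted p under 0.05 and 3.34% also exceeded 1.5-fold, which Pdlim5 did not, so no member was called.

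The adjusted p of Pdlim5 was 0.0747 and its log2 difference -0.30 after median-ratio scaling, and without M11, M12 or M20 the adjusted p was 0.0535, 0.128 and 0.0751. In flight, too, 4 of 5 Schwann cell markers were called higher in the gastrocnemius (summed level 142 to 253 TPM against 50.7 to 70.3 TPM), while of the slow fibre markers 0 were called and 6 of 8 had lower values (1 with an unadjusted p under 0.05 by limma). Fast fibre markers were lower in the gastrocnemius in sum (77432 to 80325 TPM against 108094 to 113897 TPM), with 1 of 8 called lower. At an unadjusted p under 0.05 by limma 6 of them were lower and 2 higher. Smooth muscle markers summed to 193 to 211 TPM against 127 to 172 TPM, with 0 of 4 called and 4 higher at an unadjusted p under 0.05. Their part in the Pdlim5 difference was not tested. On the ground the same gene gave 0.06 ± 0.09 between the muscles (adjusted p = 0.661). Pdlim1 remained above the quadriceps in flight in each mouse by its values, 42.3 against 36.7 TPM in M11, 49.2 against 34.5 TPM in M12 and 40.0 against 37.1 TPM in M20, with an adjusted p of 0.174 and no overlap between the muscles. Pdlim2 in flight was 1.97 to 2.92 TPM in the gastrocnemius and 0.488 to 1.27 TPM in the quadriceps, and the exact permutation p within mice was 0.25, the smallest possible with 3 mice. A fit without the filter on low TPM called Pdlim2 there (log2 difference 0.93 ± 0.12, adjusted p = 0.0392). The share of all 25742 genes called in that fit was not kept, so the call has no base rate. The values are also near the 1 TPM added before the logarithm. On the ground the exact permutation p of Pdlim2 was also 0.25, and Pdlim4 gave 0.75 on the ground and 0.5 in flight. The other 3 tested genes gave adjusted p of 0.172 to 0.818 in flight and 0.624 to 0.985 on the ground.

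**Figure D2:**
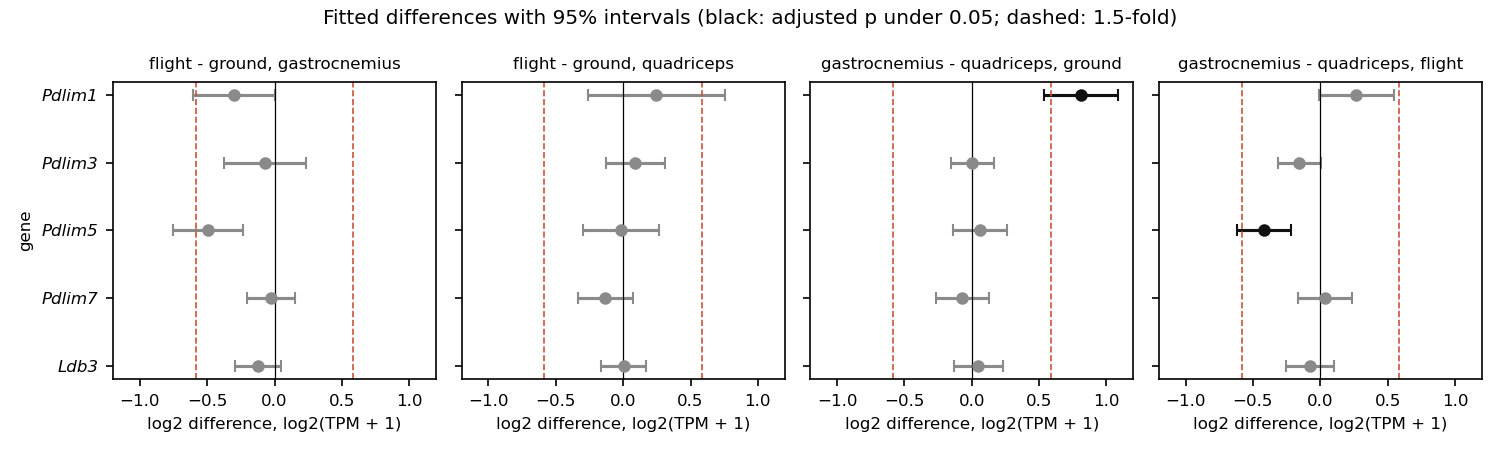
Log2 differences (x axis, log2(TPM + 1) scale) of the 5 tested PDZ-LIM genes in the comparisons of flight with ground and of gastrocnemius with quadriceps. Points are limma estimates, whiskers 95% intervals, dashed lines 1.5-fold, and black marks an adjusted p under 0.05, which only Pdlim1 between muscles on the ground (0.81) and Pdlim5 between muscles in flight (-0.42) had.

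An interaction term tested whether flight acted to a different extent in the gastrocnemius and the quadriceps. No PDZ-LIM gene was called by limma, nor was any gene (0.0% of those tested), and 2 of the 5 members had an unadjusted p under 0.05. These were Pdlim5, with an interaction of -0.48 ± 0.12 (adjusted p = 0.811), and Pdlim1, with -0.54 ± 0.17 (adjusted p = 0.939). In both the flight difference was lower in the gastrocnemius than in the quadriceps. Neither interaction passed the correction, and that of Pdlim1 was -0.39 without mouse M08. For scale, Atp2a2, at an unadjusted p of 0.0469 by limma in the interaction, ranked 498 of the 10481 genes.

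Splicing was read from junction reads, as the percent spliced in (PSI), the length-corrected share of reads that carry an exon. A skipped exon (SE) event compares transcripts with and without an exon, and a mutually exclusive exon (MXE) event compares transcripts with either of 2 neighbouring exons. The 3 samples of each group are listed in these tables without names, so they are given in listed order and cannot be matched to mice. The members had 5 SE events and 1 MXE event in each muscle. All 12 passed the filter, and Wilson 95% intervals of each sample's reads cover counting error alone.

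In the gastrocnemius no PDZ-LIM event was called (adjusted p under 0.05 and a PSI difference over 5 percentage points), against 0.378% of all 2118 events tested. By limma 3 of 6 had an unadjusted p under 0.05. For scale, the largest of these p, 0.0487 for the Pdlim7 SE event, ranked 195 of the 2118 events. The quasi-binomial model also called 0. In the same 3 events flight was separate from ground (16.2% of all events were): both events of Pdlim7 and the Ldb3 exon of 186 bases. In the quadriceps no member event was called (0.0% of 2062 events), 0 of 6 had an unadjusted p under 0.05, and 1 of 6, the Pdlim7 MXE event, did not overlap (12.5% of all events).

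The Pdlim7 MXE event sets the exon of 119 bases against the exon of 17 bases printed above. These exons were not exclusive. Reads of the SE event, given below, show transcripts with both, so the PSI of the MXE event cannot be read as an in-frame exchange alone. In the ground gastrocnemius the PSI of the exon of 119 bases was 7.76, 7.81 and 7.30%, from 17, 20 and 18 reads for it and 136, 159 and 154 reads for the exon of 17 bases. In the flight gastrocnemius it was 11.6, 19.0 and 19.2%, from 27, 46 and 44 reads against 138, 132 and 125. All 3 flight samples were above all 3 ground samples, while the exon of 17 bases stayed the commoner form in every sample. The group means were 7.62 ± 0.28% and 16.6 ± 4.30% (SD, n = 3), a difference of 8.98 percentage points. The log2 ratio of the forms differed by 1.22 (95% interval 0.42 to 2.01, adjusted p = 0.280), and over the alternative settings the adjusted p lay between 0.0978 and 0.548.

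The quadriceps gave similar values in this event. The PSI of the exon of 119 bases was 10.4, 7.67 and 4.59% on the ground and 14.6, 16.4 and 13.1% in flight. Again every flight sample was above every ground sample. The third listed ground sample, the lowest, also had the fewest junction reads of all samples over the events listed (777760). In that sample 79 of the listed events had 0 reads. The group means of 7.56 ± 2.92% and 14.7 ± 1.64% differed by 7.17 percentage points, and the log2 ratio by 1.12 (95% interval -0.02 to 2.27, adjusted p = 0.655). The flight effects of the muscles differed by 1.81 percentage points (adjusted p = 0.989 for the interaction). Wilson 95% intervals of a single sample's PSI were 6.69 to 10.6 points wide in the gastrocnemius and 7.01 to 13.3 points in the quadriceps.

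**Figure D3:**
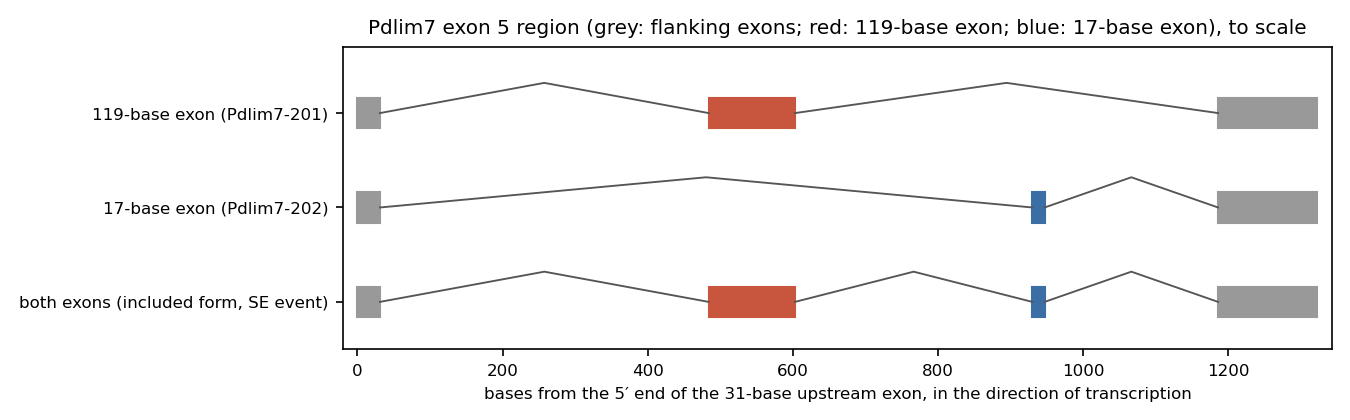
Map of Pdlim7 from its exon of 31 bases (left, grey) to its exon of 137 bases (right, grey), drawn to scale in bases along the transcript direction. The exon of 119 bases starts 484 bases and the exon of 17 bases 930 bases from the left end; the top and middle rows are the forms of the MXE event, and the middle and bottom rows are the forms of the SE event.

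The Pdlim7 SE event asks whether the exon of 119 bases is added between the exons of 31 and 17 bases. It shares the junction of the exons of 31 and 119 bases with the MXE event, so the events are not independent. Its other inclusion junction joins the exon of 119 bases to that of 17, where the MXE event counts the junction that skips the latter. Inclusion reads were 46, 45 and 43 in the ground gastrocnemius (17, 20 and 18 in the MXE event). In flight they were 57, 76 and 70 (27, 46 and 44), and in the quadriceps 34 to 41 (7 to 29). The exon of 119 bases was thus joined to that of 17 more often than past it in each sample. Inclusion was 16.2, 13.0 and 13.5% in the ground gastrocnemius and 18.1, 23.3 and 23.0% in flight, from 165 to 201 reads a sample. The groups did not overlap and the means differed by 7.24 percentage points (14.2 ± 1.71% against 21.5 ± 2.93%, adjusted p = 0.523). In the quadriceps inclusion was 13.9, 12.6 and 18.7% on the ground and 14.4, 21.0 and 17.6% in flight, with overlapping groups (adjusted p = 0.904). The TPM of Pdlim7 as a whole overlapped between flight and ground in both muscles.

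The Ldb3 exon of 186 bases was a minor form, included in 15.0, 10.7 and 12.5% in the ground gastrocnemius and in 6.17, 3.70 and 6.90% in flight. Every flight sample was below every ground sample, with means of 12.7 ± 2.15% and 5.59 ± 1.67%. The difference of -7.15 percentage points was not past the threshold (log2 ratio -1.28, 95% interval -2.50 to -0.06, adjusted p = 0.511). The event had 18 to 43 reads a sample, of which 3 to 6 carried the exon, and the Wilson intervals of single samples were 9.26 to 24.5 points wide. In the quadriceps inclusion was 6.38, 17.8 and 1.69% on the ground and 9.80, 11.6 and 4.11% in flight, with no separation (adjusted p = 0.954). There the difference of mean PSI was -0.11 percentage points and the log2 ratio 0.30, opposite in sign.

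The Ldb3 exon of 15 bases was the major form and the most deeply read event, with 231 to 480 reads a sample. Inclusion was 77.4, 80.8 and 80.9% in the ground gastrocnemius and 78.0, 87.2 and 86.3% in flight. The groups overlapped, and the means differed by 4.17 percentage points (adjusted p = 0.715). In the quadriceps it was 67.9, 76.2 and 85.3% on the ground and 81.5, 84.5 and 85.3% in flight, a difference of 7.32 percentage points (adjusted p = 0.753). The ground quadriceps samples were further apart, from 67.9 to 85.3%, than the Wilson intervals of 7.87 to 10.1 points are wide.

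The Pdlim5 exon of 18 bases, which adds 6 codons, was included in 69.4, 92.1 and 83.3% in the ground gastrocnemius and in 82.3, 65.7 and 69.6% in flight. In the quadriceps inclusion was 82.3, 89.8 and 77.1% on the ground and 82.6, 69.9 and 66.8% in flight. Mean inclusion was lower in flight by -9.07 percentage points in the gastrocnemius and -9.95 in the quadriceps, but the groups overlapped in both (adjusted p = 0.748 and 0.798). Single samples had 39 to 82 reads and Wilson intervals 17.8 to 27.7 points wide.

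The Pdlim3 exon of 264 bases was included in nearly all transcripts. Its PSI was 80.5, 96.3 and 98.8% in the ground gastrocnemius and 95.9, 94.7 and 92.7% in flight. In the quadriceps it was 94.4, 98.1% and, in the third ground sample, complete inclusion, and in flight complete inclusion in the first sample and 93.2 and 92.5% in the others. The groups overlapped in both muscles (adjusted p = 0.972 and 0.937). In the gastrocnemius the difference of mean PSI was 2.58 percentage points and the log2 ratio -0.11, so the measures differed in sign there.

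**Figure D4:**
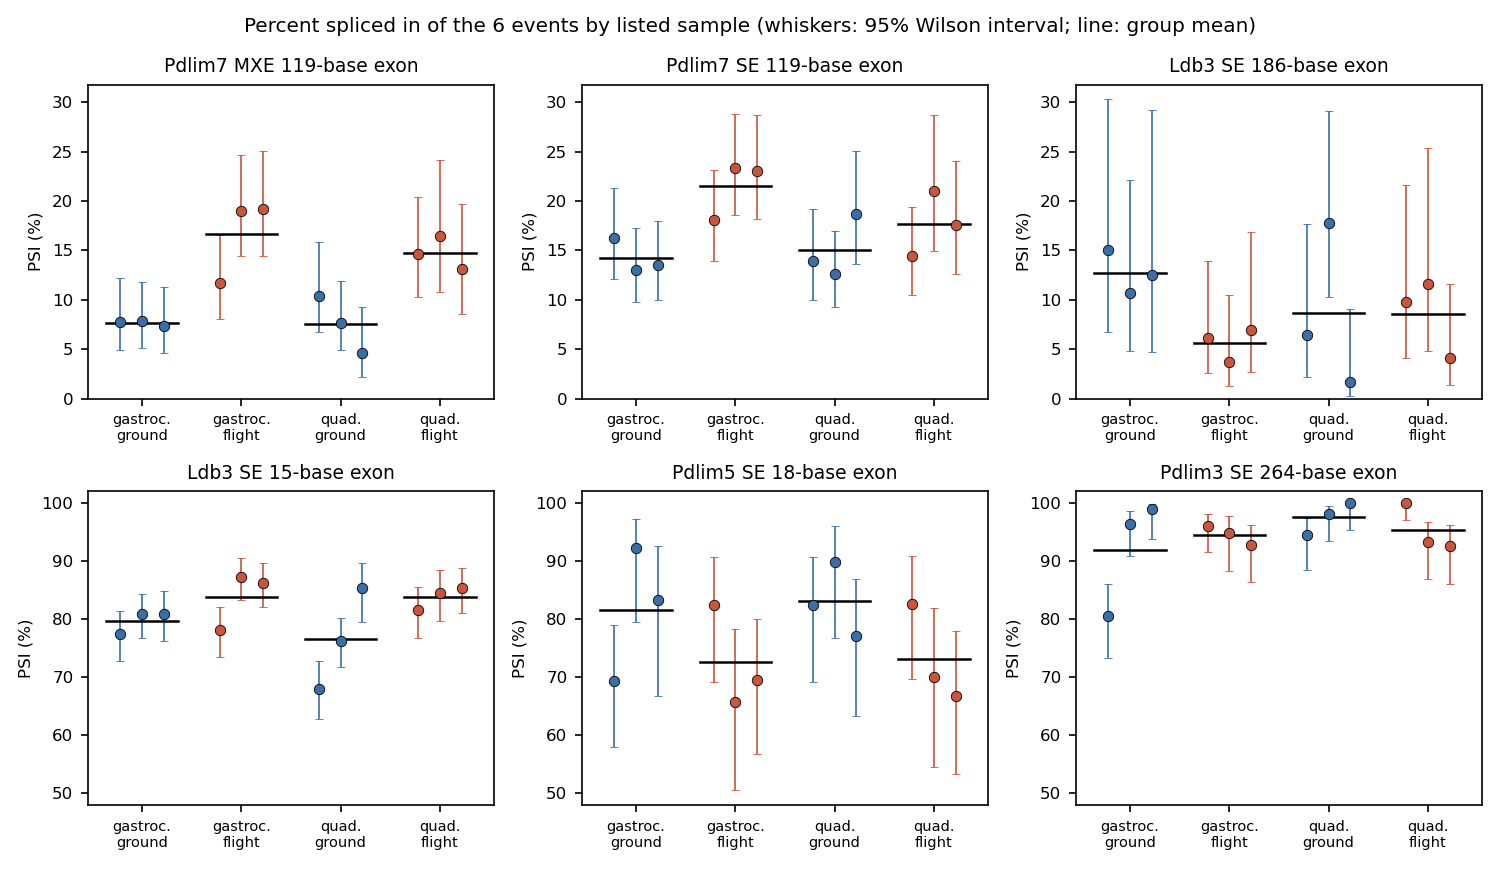
PSI in percent of the 6 PDZ-LIM events in each listed sample, ground in blue and flight in red, with 95% Wilson intervals from the sample's own reads and a black line at the group mean. The axes of the upper row start at 0 and those of the lower row do not; flight and ground separate for the Pdlim7 MXE event in both muscles (7.62 against 16.6% and 7.56 against 14.7%).

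Between the muscles no member event was called, on the ground or in flight. Of the 1858 events tested in both muscles 6.46% were called on the ground and 5.65% in flight, and 19.9% and 20% did not overlap. None of the 6 member events had an unadjusted p under 0.05 by limma in either, and none separated the muscles. The lowest adjusted p was 0.615, for the Ldb3 exon of 186 bases on the ground. In the interaction 0.161% of events were called, with no member among them and none with an unadjusted p under 0.05 (lowest adjusted p 0.828).

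Over the 12 libraries Pearson's r of log2(TPM + 1) between members ran from -0.09 (Pdlim5 and Pdlim7) to 0.64 (Pdlim5 and Ldb3), and was 0.55 between Pdlim3 and Pdlim5. Among the tested genes most like each member were Eng (0.93) for Pdlim1, Col14a1 (0.82) and Mob2 (0.82) for Pdlim3, Myot (0.88) and Chrna10 (0.86) for Pdlim5, Yrdc (0.92) and Pgam5 (0.89) for Pdlim7, and Srp54b (0.92) and Gm4366 (0.85) for Ldb3. Myot encodes myotilin, a Z-disc protein, and Eng encodes endoglin, an endothelial receptor. These 12 points share 4 groups, 6 mice and their library scaling, and the values are descriptions of likeness.

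Of the Z-disc partners, a list of 22 genes that holds the actinins, myozenins and other proteins bound there, 21 were tested and 0 were called in flight against ground in either muscle. By limma 3 had an unadjusted p under 0.05 in the gastrocnemius (1 higher, 2 lower) and 5 in the quadriceps (3 higher, 2 lower). The largest gastrocnemius differences were those of Myoz2, a calcineurin-binding protein of slow fibres (105 ± 20.1 TPM on the ground, 61.7 ± 6.43 in flight, log2 difference -0.75, adjusted p = 0.111), and Actn2, the α-actinin of all fibres (444 ± 84.8 against 298 ± 23.6 TPM, -0.56, adjusted p = 0.156). In the quadriceps they were Myoz2 (-0.50, adjusted p = 0.378) and Actn4, a non-muscle actinin (0.49, adjusted p = 0.429). The median log2 difference of the list was -0.04 in the gastrocnemius and 0.07 in the quadriceps. The 0 calls here are those of limma on TPM. The study, which used DESeq2, reports both Myoz2 and Actn2 as downregulated in the flight gastrocnemius.

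Between the muscles on the ground 3 Z-disc partners were called. Actn2 (444 ± 84.8 against 283 ± 25.0 TPM, log2 difference 0.63, adjusted p = 0.00751) and Actn4 (36.7 ± 5.94 against 23.8 ± 4.65 TPM, 0.61, adjusted p = 0.00722) were higher in the gastrocnemius. Capza2, a capping protein of actin filaments, was lower there (136 ± 14.1 against 207 ± 27.4 TPM, -0.60, adjusted p = 0.0127). In flight none of the list was called by limma, and 12 had an unadjusted p under 0.05; Capza2 (-0.53, adjusted p = 0.0137) and Actn3, the fast fibre actinin (-0.52, adjusted p = 0.00468), stayed under 1.5-fold. In the interaction 0 were called, 2 had an unadjusted p under 0.05 by limma, and the largest values were those of Csrp3 (-0.41, adjusted p = 0.976) and Actn4 (-0.30, adjusted p = 0.957).

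The other LIM domain genes, 22 genes of which 21 were tested, gave 0 calls in flight against ground in either muscle, with 5 and 1 at an unadjusted p under 0.05 by limma. Among the larger differences were those of Lmcd1 in the gastrocnemius (-0.46, adjusted p = 0.217) and Crip1 in the quadriceps (-0.36, adjusted p = 0.480). Fhl1, a LIM-only protein of the sarcomere, was called higher in the gastrocnemius than in the quadriceps on the ground (607 ± 109.9 against 314 ± 61.1 TPM, 0.95, adjusted p = 0.00312) and in flight (514 ± 23.4 against 292 ± 36.5 TPM, 0.82, adjusted p = 0.00337). Zyx, the focal adhesion protein zyxin, was called in flight (0.62, adjusted p = 0.0127). In the interaction 0 were called and 0 had an unadjusted p under 0.05 by limma, and the largest values were those of Trip6 (0.37, adjusted p = 0.968) and Crip1 (0.30, adjusted p = 0.968).

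Of the signalling partners, 8 genes with the protein kinase C family among them, 6 were tested and 0 were called in any of the 5 comparisons. At an unadjusted p under 0.05 limma gave 0 in flight against ground in the gastrocnemius, 2 in the quadriceps, 3 and 2 between the muscles on the ground and in flight, and 0 in the interaction. The largest flight differences were Prkcd (0.25, adjusted p = 0.374) and Prkcq (0.14, adjusted p = 0.468) in the gastrocnemius, and Prkcd (0.40, adjusted p = 0.376) and Prkce (0.33, adjusted p = 0.374) in the quadriceps. Between the muscles they were Prkcd (0.27, adjusted p = 0.120) and Prkca (-0.22, adjusted p = 0.155) on the ground, and Prkce (-0.37, adjusted p = 0.0409, under 1.5-fold) and Prkcq (-0.25, adjusted p = 0.0742) in flight. In the interaction they were Prkce (-0.20, adjusted p = 0.968) and Prkca (0.16, adjusted p = 0.9748).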

How the data were processed

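The authors aligned single-end reads of 50 bases to mm10 with STAR 2.7.1a, quantified transcripts with kallisto 0.46.0 and deposited gene TPM for 12 libraries. Per the labels and methods, splicing tables came from rMATS-turbo (version not given in the sources used here) and list, for each skipped or mutually exclusive exon, inclusion and skipping junction reads of 3 ground and 3 flight samples per muscle, ground first as read from the table names. These tables also hold the authors' p-values, false discovery rates and inclusion differences, which were not used.

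TPM above 5 in at least 1 library was required, and log2(TPM + 1) was fitted with limma 3.58.1 (R 4.3.3; trend), within a muscle without a block and between muscles with the mouse, named in the titles, as a fixed block. TPM keeps no depth, so the depth of the expression libraries was not read from these values. The methods of the study do report it. They give a ground quadriceps sample, not named in the text, fewer uniquely mapped reads than all others. The same mouse's deviations in the 2 muscles correlated at -0.12 to 0.33. Splicing was fitted as the log2 ratio of length-corrected reads with 0.5 reads added, for events with a mean of over 10 reads in each group and PSI not at or under 0.05, nor at or over 0.95, in all samples; samples held 777760 to 1246850 junction reads over the events listed. Adjustment was by Benjamini-Hochberg over all features. The replicates of a group were separate mice. Exact permutation tests and Wilson intervals used scipy 1.17.1, and the fits were tested on simulated data. Sequences came from GENCODE vM21. The named items are all members and events, list genes called or otherwise the 2 largest differences per list and comparison, and the 2 genes most like each member; some items that this rule names are not reported here. The members and lists were chosen with earlier results of these data known.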

Additional observations from a re-analysis of the deposited data

How the results depend on the processing

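The counts of called members and member events were within range of the reported ones in 104 of 109 alternatives. Between the muscles on the ground, 0 members were called without the filter on low TPM, and 0 to 1 as each mouse was left out (0 without M02, M03 or M08). Between the muscles in flight, 1 member was called without the filter (Pdlim2, low in every library), with no share over all genes kept. Leaving out that filter raised the number of genes tested to 25742. With a replicate block, 0 members were called in either comparison of flight with ground, as without it, and Pdlim5 in the gastrocnemius had an adjusted p of 0.246. Numbers shared by flight and ground mice did not mark a pair (r of same-numbered libraries from -0.18 to 0.11). Without the mouse as a replicate block, Pdlim1 between the muscles on the ground had an adjusted p of 0.0240, and no call changed. No paired analysis was possible for splicing because the listed samples carry no names. Of 55 single values, 23 changed direction under some alternative; none of those 23 was called, and the cause was not tested.

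After median-ratio scaling the log2 difference was -0.0097 for Ldb3 in flight in the quadriceps, 0.055 for Pdlim7 between the muscles on the ground and 0.044 for Ldb3 between the muscles in flight. As each library was left out, the log2 differences of flight from ground ran in the gastrocnemius from -0.20 to 0.059 for Pdlim3 and from -0.075 to 0.030 for Pdlim7, and in the quadriceps from -0.022 to 0.39 for Pdlim1, from -0.11 to 0.076 for Pdlim5 and from -0.042 to 0.046 for Ldb3. Between the muscles they ran on the ground from -0.048 to 0.041 for Pdlim3 and from -0.010 to 0.15 for Pdlim5, and in flight from -0.044 to 0.15 for Pdlim7 and from -0.14 to 0.027 for Ldb3. In percentage points of PSI, flight minus ground ran from -3.13 to 6.06 for the Pdlim3 exon in the gastrocnemius and from -3.58 to 4.47 for the Ldb3 exon of 186 bases in the quadriceps. Gastrocnemius minus quadriceps on the ground ran from -2.06 to 0.97 for the Pdlim7 SE event, -1.42 to 1.496 for the Pdlim7 MXE event, -1.07 to 7.59 for the Ldb3 exon of 15 bases, -6.74 to 4.63 for the Pdlim5 exon and -9.14 to 0.050 for the Pdlim3 exon. In flight it ran from -1.66 to 2.95 for the Ldb3 exon of 15 bases, -5.50 to 4.16 for the Pdlim5 exon and -2.17 to 1.60 for the Pdlim3 exon. The interaction ran from -7.55 to 1.12 for the Ldb3 exon of 15 bases, -5.22 to 6.15 for the Pdlim5 exon and -0.84 to 8.35 for the Pdlim3 exon. The Ldb3 exon of 186 bases and the Pdlim5 exon rested on the fewest reads of the 6 events, 18 to 43 and 39 to 82 a sample.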
